A study of Mus musculus with 25 samples.

Results

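The receptors through which nerves drive the salivary gland to secrete were followed by their mRNA signal in the glands of male C57BL/6.NOD-Aec1Aec2 mice at 5 ages, 4 weeks apart (4, 8, 12, 16 and 20 weeks). The receptors were 9 genes picked by symbol in the probe annotation, namely Chrm1, Chrm3, Adra1a, Adra1b, Adrb1, Vipr1, Vipr2, Tacr1 and P2rx7, and 7 of them had a probe set among the 18194 genes tested. Adra1a and Adrb1 were not matched and were not analysed here. Each age was represented by 5 mice from at least 2 litters, with 1 Affymetrix array per mouse and 25 arrays in all, and the tissue was 1 lobe each of the submandibular, sublingual and parotid gland without the lymph nodes. The strain carries the NOD-derived intervals Aec1 (on chromosome 3) and Aec2 (on chromosome 1) on a C57BL/6 background and develops a Sjögren's syndrome-like disease, and every mouse of every age carried both intervals. Arrays of the parental C57BL/6J strain were not analysed here, so age and disease stage cannot be told apart. None of the 7 genes lies on either chromosome, since the gene table placed Chrm1 on chromosome 19, Chrm3 on 13, Adra1b on 11, Vipr1 on 9, Vipr2 on 12, Tacr1 on 6 and P2rx7 on 5.

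Parasympathetic nerves release acetylcholine, which acts on the muscarinic receptors Chrm3 and Chrm1 of acinar cells, and these couple through Gq proteins to phospholipase C, inositol trisphosphate and calcium release, which drives fluid secretion. Sympathetic noradrenaline acts on alpha1-adrenergic receptors such as Adra1b through the same calcium arm and on the beta1-adrenergic receptor through cyclic AMP, which drives protein secretion. Nerve endings in the gland also release vasoactive intestinal peptide, which acts on Vipr1 and Vipr2 through cyclic AMP, and substance P, which acts on Tacr1 through calcium, whereas P2rx7 is an ATP-gated ion channel of acinar and duct cells as well as of macrophages and lymphocytes.

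None of the 7 receptors passed the test at any age. The limma fit over all 25 arrays, with Benjamini-Hochberg adjustment over all genes and a threshold of adjusted p under 0.05, called 0 of 7 receptors at 8 weeks against 4 weeks, where 2.26% of all genes were called. It called 0 of 7 at 12 weeks, where 7.01% of all genes were called, 0 of 7 at 16 weeks (3.4%) and 0 of 7 at 20 weeks (2.65%), each against 4 weeks. Between neighboring ages it called 0 of 7 at 12 against 8 weeks (0.0055% of all genes), at 16 against 12 weeks (0.0055%) and at 20 against 16 weeks (0.0275%). The F-test for any change over the 5 ages called 0 of 7 (4.66% of all genes), and the B-statistic of the polynomial age terms exceeded 1.5 for 0 of 7 (1.92% of all genes). At an unadjusted p under 0.05 only P2rx7 at 16 against 12 weeks was called among the 7 comparisons. In that comparison 7.67% of all genes had such a p, and in the others 3.86% to 20.7% did. The comparisons with 4 weeks share the same 5 young mice and are not independent of each other. With 7 genes and shares of 7.01% or less, these counts are near the background. Genes with no probe set above the median level of all probe sets were called less often. Their shares were 0.292%, 0.923%, 0.369% and 0.215% at 8, 12, 16 and 20 weeks against 4 weeks. Chrm3, Adra1b, Vipr2 and Tacr1 were of this kind, so a count of 0 says little about them.

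Calls on receptors appeared only where arrays that stood apart were weighted down or left out. With array weights, 4 receptors passed at 12 weeks (54.9% of all genes) and 1 at 20 weeks (35.9%), each against 4 weeks, and 2 passed the F-test (37.7%). Without the 3 arrays that correlated least with their own age, 1 receptor passed at 8 weeks (16.6% of all genes), 4 at 12 weeks (43.3%), 1 at 16 weeks (33.3%), 2 at 20 weeks (32.1%) and 1 in the F-test (25.7%). At 12 weeks they were Adra1b, Vipr2, Tacr1 and P2rx7 in both fits. With weights Chrm1 passed at 20 weeks, and Chrm1 and P2rx7 passed the F-test. Without the 3 arrays Vipr2 passed in every one of the others and Chrm1 passed besides at 20 weeks.

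**Figure D1:**
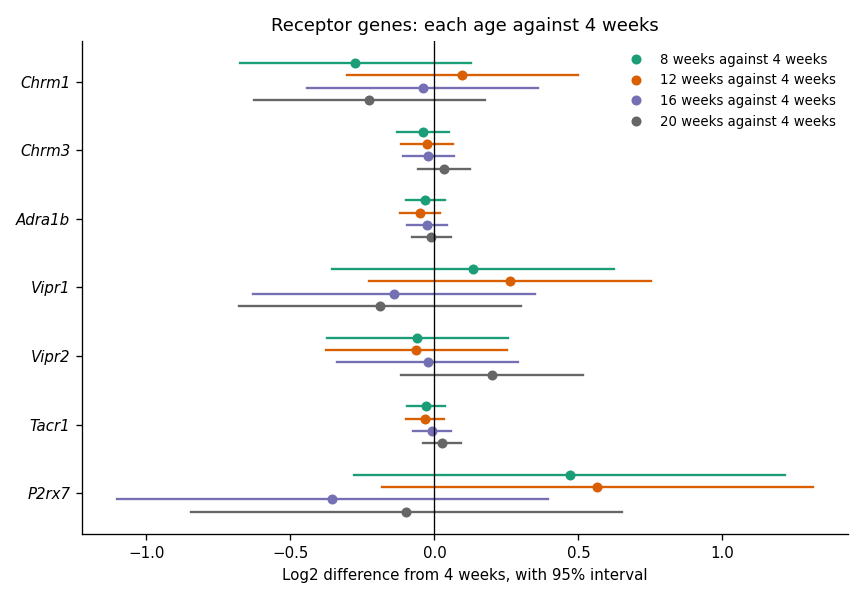
Log2 difference of 8, 12, 16 and 20 weeks from 4 weeks (x axis) for the 7 receptor genes (y axis), with points for the limma estimate and lines for its 95% interval, 5 mice per age. All 28 intervals cross 0, and they are widest for P2rx7 and narrowest for Adra1b and Tacr1.

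The receptors fell into 2 kinds by signal. A probe set is a group of short probes that reports 1 transcript as 1 log2 value per array, and its level cannot be set against that of another probe set. Of the 11 receptor probe sets, 4 averaged more than 3.27 over the arrays, the level that splits all probe sets on the array evenly and is called the median here. These were 1439611_at of Chrm1, 1455555_at of Vipr1, and 1419853_a_at and 1439787_at of P2rx7. The other 7 lay below it, and Chrm3, Adra1b, Vipr2 and Tacr1 were reported only by such dim probe sets. A log2 value in this low range does not show whether the transcript was absent. All 7 dim probe sets were designed on RefSeq mRNA records and all 4 brighter ones on other GenBank records, although over the whole array the share above the median was alike, 56.4% of 5891 and 54.4% of 29061 probe sets.

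Chrm1, the M1-type muscarinic receptor, was above the median through 1 of its probe sets. The other, 1450833_at, was dim on every array, between 2.32 and 2.47. The log2 values of the brighter one were 6.07, 6.49, 6.50, 6.27 and 6.62 in the 5 mice at 4 weeks and 5.95, 6.27, 5.71, 6.28 and 6.36 at 8 weeks. They were 6.49, 6.30, 6.94, 6.29 and 6.41 at 12 weeks, 6.79, 6.40, 6.08, 6.20 and 6.27 at 16 weeks and 5.85, 5.88, 6.95, 5.87 and 6.27 at 20 weeks. The ages overlapped throughout, and at 20 weeks mouse 3 held the highest value of all 25 arrays while 3 of its 4 companions lay below every 4-week mouse. The means in order were 6.49 ± 0.27 at 12 weeks, 6.39 ± 0.22 at 4 weeks, 6.35 ± 0.27 at 16 weeks, 6.16 ± 0.47 at 20 weeks and 6.12 ± 0.27 at 8 weeks (SD, n = 5 each), and no neighbors in that order differed by more than their SD.

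The largest step of Chrm1 between neighboring ages was 0.37 on the log2 scale (95% interval -0.03 to 0.77) at 12 against 8 weeks. At 20 against 4 weeks the difference was -0.23 (interval -0.63 to 0.18, limma adjusted p = 0.752). Without mouse 3 at 20 weeks it was -0.42 (adjusted p = 0.119). That array stood apart from the rest of the series. Its median correlation with the other 20-week arrays was 0.887, against 0.973 for the next lowest array, mouse 5 of the same age. It also had the highest array median (3.64), the lowest upper quartile (5.19) and a difference of 3.87 between the 3′ and 5′ probe sets of Gapdh, which were at most 1.68 apart on the other arrays. For actin this difference was 5.36 on the same array, 3.75 in mouse 5 at 20 weeks and 3.68 in mouse 2 at 16 weeks. What part the state of the array of mouse 3 had in its Chrm1 value was not tested. Leaving it out together with the next 2 arrays by correlation, mouse 5 at 20 weeks and mouse 2 at 16 weeks, gave -0.52 at 20 against 4 weeks (adjusted p = 0.0365), in a fit that called 32.1% of all genes, so that the call on Chrm1 depended on these arrays.

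Chrm3, the muscarinic receptor known as the main driver of saliva flow, was reported by a single dim probe set. The 5 mice spanned 2.52 to 2.56 at 4 weeks, 2.49 to 2.54 at 8 weeks, 2.48 to 2.56 at 12 weeks, 2.46 to 2.61 at 16 weeks and 2.50 to 2.79 at 20 weeks. Apart from 2.79 in mouse 3 at 20 weeks and 2.61 in mouse 2 at 16 weeks, all values lay within 2.46 to 2.57. Its differences from 4 weeks were between -0.040 and 0.034 on the log2 scale.

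Adra1b, the alpha1B-adrenergic receptor, was likewise dim, with means of 2.015 ± 0.022, 1.984 ± 0.037, 1.966 ± 0.014, 1.989 ± 0.038 and 2.005 ± 0.075 from 4 to 20 weeks (SD, n = 5 each). Its 12-week values of 1.974, 1.966, 1.944, 1.965 and 1.982 all lay below its 4-week values of 2.045, 2.024, 2.021, 1.997 and 1.990. Such a separation was common, with 33.6% of all genes not overlapping at 12 against 4 weeks. The gap between the groups was smaller than 0.01 on the log2 scale, and the difference of the means was -0.049 (interval -0.118 to 0.020).

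**Figure D2:**
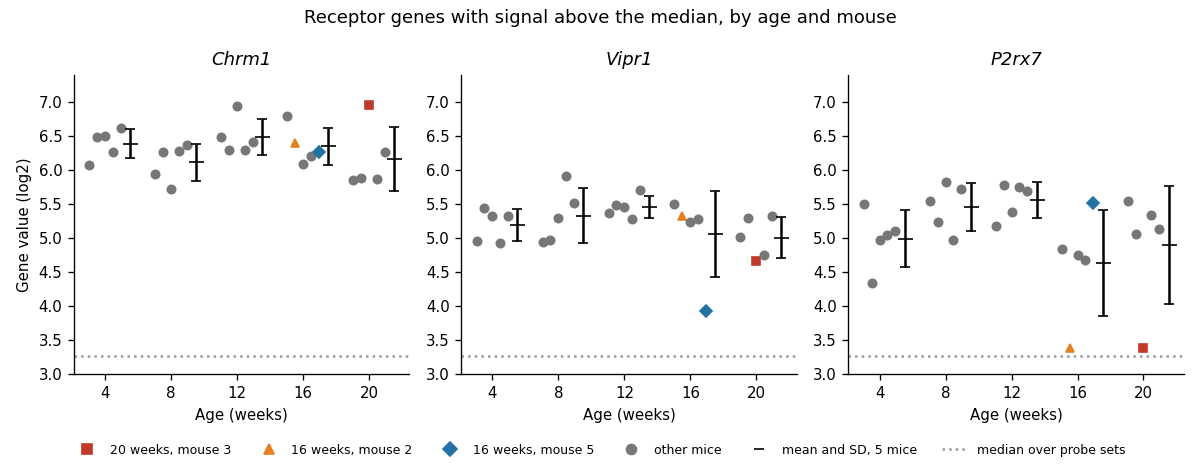
Log2 value of Chrm1, Vipr1 and P2rx7 in each mouse (points) by age in weeks, with the mean and SD of 5 mice beside them and the median over all probe sets as a dotted line. Mouse 3 at 20 weeks (square) was highest for Chrm1 (6.95) and lowest for P2rx7 (3.38), and mouse 5 at 16 weeks (diamond) was lowest for Vipr1 (3.94).

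Vipr1, the VPAC1 receptor for vasoactive intestinal peptide, was above the median through 1 of its probe sets. The other, 1423004_at, was dim on every array, between 1.80 and 2.01. The log2 values of the brighter one were 4.96, 5.44, 5.32, 4.93 and 5.33 at 4 weeks and 4.95, 4.98, 5.30, 5.91 and 5.52 at 8 weeks. They were 5.37, 5.48, 5.45, 5.28 and 5.71 at 12 weeks, 5.50, 5.32, 5.24, 5.29 and 3.94 at 16 weeks and 5.02, 5.29, 4.66, 4.75 and 5.32 at 20 weeks. The spread was narrow at 12 weeks and widest at 16 weeks, where 1 mouse alone set it. The means in order were 5.46 ± 0.16 at 12 weeks, 5.33 ± 0.40 at 8 weeks, 5.20 ± 0.23 at 4 weeks, 5.06 ± 0.63 at 16 weeks and 5.01 ± 0.30 at 20 weeks (SD, n = 5 each), and neighbors in that order again differed by less than their SD. At 16 against 12 weeks the difference was -0.40 (interval -0.89 to 0.09, adjusted p = 0.763). Without mouse 5 at 16 weeks it was -0.12.

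The 16-week mouse with the low Vipr1 value also had little parotid signal. Over 6 parotid acinar products its mean log2 level was 8.29, against 8.65 in mouse 2 and 12.3 in each of the other 3 mice of that age. In mouse 2 at 16 weeks Vipr1 was at 5.32. At 12 weeks the lowest level of the list was 8.73, in mouse 4, which also held the lowest Vipr1 value of that age, 5.28. At 8 weeks mouse 3 had a level of 8.13 with Vipr1 at 5.30, and mouse 2 a level of 8.59 with Vipr1 at 4.98. The lowest Vipr1 value of that age, 4.95, was in mouse 1, which had the highest parotid level, 12.28. Other ages went the opposite way. At 4 weeks the lowest parotid level, 9.40 in mouse 2, came with the highest Vipr1 value, 5.44. At 20 weeks mouse 5 had the lowest level, 9.18, and the highest Vipr1 value, 5.32, while mouse 3 had the highest level, 13.49, and the lowest Vipr1 value, 4.66. The part of the parotid share in the Vipr1 values was not tested. In whole gland tissue fewer cells of a type and less RNA per cell cannot be told apart.

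Vipr2, the VPAC2 receptor, had only a dim probe set and held the most extreme single value of the set. At 20 weeks mouse 3 was at 3.77, and the other 4 mice lay between 2.52 and 2.61. The remaining ages spanned 2.56 to 2.66 at 4 weeks, 2.51 to 2.56 at 8 weeks, 2.51 to 2.55 at 12 weeks and 2.53 to 2.69 at 16 weeks. The 12-week values lay below all those of 4 weeks. The 20-week difference from 4 weeks was 0.20 with mouse 3 and -0.043 without it.

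Tacr1, the substance P receptor, had only a dim probe set, with means of 1.72 ± 0.01, 1.69 ± 0.02, 1.69 ± 0.01, 1.72 ± 0.05 and 1.75 ± 0.07 from 4 to 20 weeks (SD, n = 5 each). Its 12-week values did not overlap its 4-week values either, with a difference of -0.033. Of the 7 receptors, 3 did not overlap at 12 against 4 weeks (Adra1b, Vipr2 and Tacr1), all of them dim and all lower at 12 weeks, beside the 33.6% of all genes given above. Over all genes without a probe set above the median, the median difference in that comparison was -0.042.

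The dim probe sets moved with the array rather than one by one. Against the median level of the probe sets below the median on the same array, Spearman's rho over 25 arrays was between 0.84 and 0.98 for the 7 dim receptor probe sets. It was 0.36 for Chrm1, -0.23 for Vipr1, and -0.44 and -0.64 for the brighter probe sets of P2rx7. Among themselves the dim probe sets had a rho of 0.64 to 0.98 over their 21 pairs, with a median of 0.88. These are descriptions over points that share an array and its scaling. Mouse 3 at 20 weeks and mouse 2 at 16 weeks were the 2 highest arrays for every one of the 7, and mouse 3 was highest for 6.

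**Figure D3:**
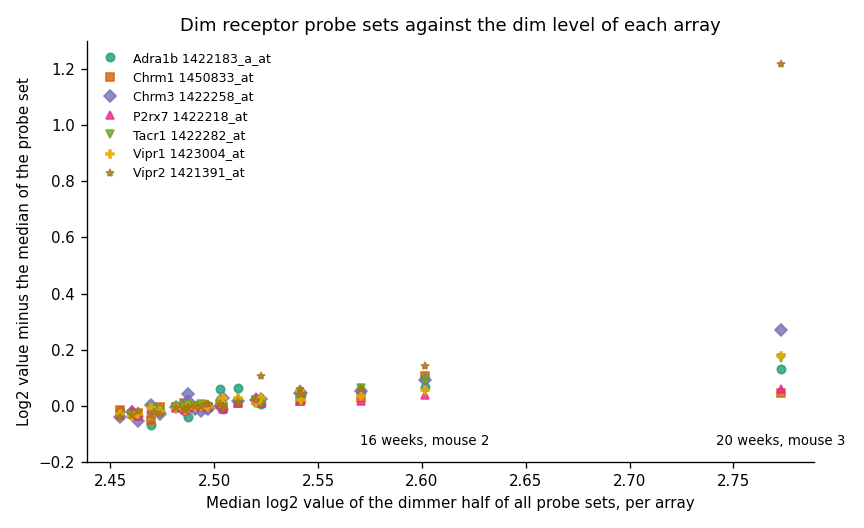
Log2 value of each dim receptor probe set less its own median (y axis) against the median log2 value of all probe sets below the median on that array (x axis), 25 arrays, with 1 marker per probe set. The points rise together along the x axis, and mouse 3 at 20 weeks lies far right, with Vipr2 highest at 3.77 before its median was taken off.

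P2rx7 varied most between mice and ages. Its gene values, the mean of its 2 brighter probe sets, were 5.51, 4.33, 4.97, 5.04 and 5.10 at 4 weeks and 5.55, 5.23, 5.82, 4.97 and 5.73 at 8 weeks. They were 5.17, 5.79, 5.38, 5.75 and 5.69 at 12 weeks, 4.84, 3.39, 4.75, 4.68 and 5.52 at 16 weeks and 5.54, 5.06, 3.38, 5.34 and 5.14 at 20 weeks. Mice of 12 weeks and 4 weeks overlapped, since mouse 1 at 4 weeks lay above mice 1 and 3 at 12 weeks, and 4 of the 5 mice at 16 weeks lay below every mouse at 12 weeks. The means in order were 5.56 ± 0.27 at 12 weeks, 5.46 ± 0.35 at 8 weeks, 4.99 ± 0.42 at 4 weeks, 4.89 ± 0.87 at 20 weeks and 4.64 ± 0.78 at 16 weeks (SD, n = 5 each). Of the neighbors in that order only 8 and 4 weeks differed by more than their SD, by 0.47 (interval -0.28 to 1.22, adjusted p not past the threshold).

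The signal at 16 weeks was 0.53 times that at 12 weeks, a log2 difference of -0.92 ± 0.36 (SE, interval -1.67 to -0.17), with an unadjusted p of 0.0183 and a limma adjusted p of 0.534. It was -0.61 without mouse 2 and -1.14 without mouse 5 at 16 weeks, and -0.47 in a fit that adjusts for the upper quartile of the array. Against 4 weeks the differences were 0.47 at 8 weeks, 0.57 at 12 weeks (interval -0.18 to 1.31, adjusted p = 0.422), -0.35 at 16 weeks and -0.10 at 20 weeks. The upper quartile of the array values was 5.69 to 5.93 at 12 weeks, against 5.34 to 5.75 at 4 weeks. With it as a covariate the 12-week difference was 0.010. With the 3 arrays of lowest correlation left out, none of them of 4 or 12 weeks, the estimate stayed at 0.57 and passed (adjusted p = 0.0430), in a fit that called 43.3% of all genes. The arrays of these ages also differed in the 3′ to 5′ difference of actin, 2.78 to 3.02 at 12 weeks against 2.18 to 2.67 at 4 weeks. That of Gapdh overlapped, 0.50 to 0.83 against 0.49 to 1.68. The part of either in any 12-week difference given here was not tested.

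The brighter P2rx7 probe sets did not share 1 pattern. Probe set 1439787_at stood at 4.83, 5.54, 4.97, 5.52 and 5.49 at 12 weeks, against 4.72, 3.14, 4.45, 4.67 and 4.51 at 4 weeks. At 16 weeks it stood at 4.50, 3.18, 4.78, 4.66 and 4.50, so that all 12-week mice lay above all mice of both other ages. Among probe sets above the median, 23.6% did not overlap at 12 against 4 weeks and 3.47% at 16 against 12 weeks. Its difference at 12 against 4 weeks was 0.97 ± 0.34 (SE) with an adjusted p of 0.130 over all probe sets, and at 16 against 12 weeks it was -0.94 ± 0.34 with an adjusted p of 0.776.

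Probe set 1419853_a_at stood at 5.52, 6.04, 5.79, 5.98 and 5.90 at 12 weeks, against 6.29, 5.53, 5.50, 5.41 and 5.69 at 4 weeks, which overlapped, with a difference of 0.16 ± 0.46. At 16 weeks it stood at 5.19, 3.59, 4.73, 4.70 and 6.54, a difference from 12 weeks of -0.90 ± 0.46 (adjusted p = 0.993). Its highest value of all arrays, 6.54, was in the 16-week mouse with the lowest Vipr1 value. Over 25 arrays the probe sets had a Pearson r of 0.62 and a Spearman rho of 0.39. The probe set 1422218_at of the same gene was dim on every array, between 1.69 and 1.79.

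**Figure D4:**
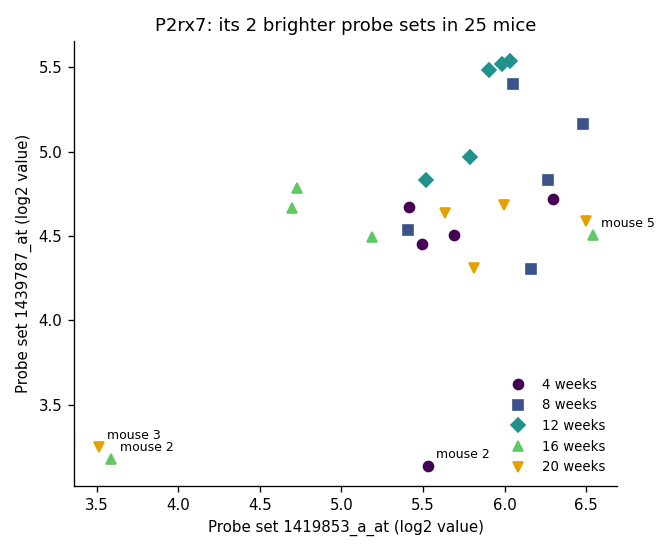
Log2 values of the 2 brighter P2rx7 probe sets in 25 mice, 1419853_a_at on the x axis and 1439787_at on the y axis, with 1 marker kind per age. The 12-week mice lie highest as a group on the y axis (4.83 to 5.54), and mouse 3 at 20 weeks and mouse 2 at 16 weeks lie low on both axes.

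Markers of cells that may carry P2rx7 were read in the same arrays. The macrophage list (11 genes, 9 of them above the median) had levels of 5.15 to 6.09 at 16 weeks, against 5.58 to 6.00 at 12 weeks. In that comparison 0 of its genes passed, where 0.0055% of all genes did. The B cell list had levels of 7.37 and 7.35 in mice 3 and 4 at 16 weeks and of 2.93 to 3.19 in the other 3, against 2.88 to 3.25 at 12 weeks. The T cell list was likewise at 4.23 and 4.12 in mice 3 and 4 and at 2.78 to 3.00 in the other 3 mice, against 2.77 to 2.81 at 12 weeks, and its defining gene Cd3e averaged 3.20 at 16 weeks and 3.05 at 12 weeks. No gene of either list passed at 16 against 12 weeks. With so small a share of all genes called there, these counts say little about the markers. Mice 3 and 4 had P2rx7 values of 4.75 and 4.68, and the lowest value of that age, 3.39, belonged to mouse 2. In that mouse the B cell level was 3.19 and the T cell level 3.00, the macrophage level of 5.15 was the lowest of the 25 arrays, and the levels of the duct markers and of the reference genes (9.22) were the lowest of its age. Mouse 3 at 20 weeks, with P2rx7 at 3.38, had a macrophage level of 5.31. Acinar markers (13 genes, all above the median) averaged 9.51 to 12.7 and duct markers 10.2 to 11.7 over the 25 arrays. At 16 against 12 weeks the median difference was -0.68 over the acinar, -0.72 over the parotid and -0.17 over the duct list. Over all genes with a probe set above the median it was -0.13. By mouse, the acinar level at 16 weeks was 9.79 in mouse 2. It was lowest, 9.51, in mouse 5, which had the highest P2rx7 value of that age, 5.52. The part of any of these in the P2rx7 values was not tested.

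The genes whose pattern over the 25 arrays was most like that of a receptor were named by Spearman's rho, as a description. The ranking covered 11082 genes with a probe set above the median and a common symbol, without clone, model or accession names. For Chrm1 they were Cox10 (0.84), Sycp3 (0.81) and Mfsd13a (0.79). For Vipr1 they were Syt7 (0.92), a synaptotagmin, with Bcat2 and Kdelr2 (0.81 each). For P2rx7 they were Osgin2 (0.90), Anxa1 (0.88) and Erbb3 (0.88). The receptors themselves were less alike, with a rho of 0.50 for Chrm1 and Vipr1, -0.34 for Chrm1 and P2rx7 and 0.02 for Vipr1 and P2rx7.

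Genes of the same pathways were read against the shares of all genes that rose against 4 weeks, 1.48%, 5.66%, 1.71% and 1.14% at 8, 12, 16 and 20 weeks, and of those that fell, 0.78%, 1.36%, 1.68% and 1.52%. A list of 20 genes at these shares would hold about 1 such gene or none. Genes with no probe set above the median were called less often, 0.923% in either direction at 12 weeks, where 7.01% of all genes were. The calcium, cyclic AMP and shut-off lists below lay mostly above the median, so the shares of all genes are low ones for them. Of 30 listed genes of related receptors, such as Chrm4, P2rx4 and Npy1r, 20 were measured and 8 of them were above the median. One fell at 8 weeks and none rose at any age, with medians of -0.041, -0.056, -0.027 and 0.024 at 8, 12, 16 and 20 weeks against 4 weeks, where all genes had -0.030, -0.031, -0.015 and 0.037. The gene that fell was Ramp1, which makes the calcitonin receptor-like protein a receptor for calcitonin gene-related peptide. It spanned 3.24 to 4.35 at 8 weeks, against 4.37 to 7.31 at 4 weeks (-1.78, adjusted p = 0.0458). The groups did not overlap, which held for 8.63% of all genes in that comparison. The Ramp1 call held in 7 of the 25 fits that left out 1 array. It was lost with the upper quartile as a covariate (-1.56, adjusted p = 0.130).

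Among the ligands, the gene for substance P stood out. Of 23 listed transmitter genes and enzymes, 21 were measured, of which 1, 2, 1 and 1 rose and 0, 0, 1 and 1 fell at 8, 12, 16 and 20 weeks against 4 weeks, beside 1.48%, 5.66%, 1.71% and 1.14% of all genes that rose and 0.78%, 1.36%, 1.68% and 1.52% that fell. Tac1, the substance P precursor, rose at every later age. It spanned 4.21 to 5.51 (median 4.51) at 4 weeks, 5.97 to 6.05 (6.00) at 8 weeks, 5.99 to 6.68 (6.38) at 12 weeks, 5.81 to 6.18 (5.92) at 16 weeks and 5.53 to 6.62 (6.25) at 20 weeks. No later mouse overlapped a 4-week mouse. Of all genes, 8.63%, 33.6%, 4.38% and 2.57% did not overlap with 4 weeks at 8, 12, 16 and 20 weeks. The differences of Tac1 were 1.23, 1.60, 1.19 and 1.36 (adjusted p = 0.0037, 1.6e-04, 0.0030 and 0.0011), while its receptor Tacr1 stayed dim. These calls held in all 25 fits that left out 1 array.

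Bche, butyrylcholinesterase, which hydrolyses acetylcholine, fell at 16 weeks (-0.59, adjusted p = 0.0169) and at 20 weeks (-0.55, adjusted p = 0.0297). The Bche call at 16 weeks held in all 25 fits that left out 1 array, and that at 20 weeks in 18. Nt5e, which makes adenosine from AMP outside the cell, rose at 12 weeks (0.95, adjusted p = 0.0388). The Nt5e call held in 18 of the 25 fits that left out 1 array, and it was lost with the upper quartile as a covariate (0.57, adjusted p = 0.119) and under quantile normalization (0.77, adjusted p = 0.107). Vip, the ligand of Vipr1 and Vipr2, spanned 3.15 to 5.70 at 4 weeks, 2.74 to 3.49 at 8 weeks, 3.10 to 4.75 at 12 weeks, 3.11 to 3.73 at 16 weeks and 3.28 to 5.61 at 20 weeks. The ages overlapped, and none of its differences passed. Nerve and Schwann cell markers had levels of 4.02 to 4.45 over all arrays, and 0 of 12 passed at any age against 4 weeks.

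Of 22 measured genes of the calcium arm (24 listed), 3 rose and 0 fell at 12 weeks against 4 weeks and 0 passed at the other ages, where 5.66% of all genes rose at 12 weeks. This share includes the dim genes, which were rarely called. The median over the list at 12 weeks was 0.098, against 0.14 over all genes with a probe set above the median, and 18 of the 22 had one. In the same comparison the median was 0.36 over 10 reference genes, 0.54 over 12 duct markers and 0.71 over 10 myoepithelial and smooth muscle markers, and the part of these in the list was not tested. The genes that rose were Gna11, a Gq-type alpha subunit (1.07, adjusted p = 0.0431), and the inositol trisphosphate receptors Itpr2 (1.36, adjusted p = 0.0109) and Itpr3 (0.57, adjusted p = 0.0345). Itpr2 spanned 7.68 to 8.02 at 12 weeks, against 5.85 to 7.06 at 4 weeks. The Itpr2 call held in all 25 fits that left out 1 array, that of Itpr3 in 18 and that of Gna11 in 11. With the upper quartile as a covariate Gna11 was at 0.66 (adjusted p = 0.146) and Itpr3 at 0.39 (adjusted p = 0.121), and under quantile normalization they were at 0.76 (adjusted p = 0.0620) and 0.24 (adjusted p = 0.515).

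Of 22 measured genes of the cyclic AMP arm (24 listed), 1, 3, 1 and 0 rose and 0, 0, 1 and 1 fell at 8, 12, 16 and 20 weeks, against the same shares of all genes (at 12 weeks 5.66% rose). Prkar1b, a regulatory subunit of protein kinase A, rose at 8, 12 and 16 weeks (0.77, 1.00 and 0.70, adjusted p = 0.0235, 0.0019 and 0.0301). These calls held in 22, 25 and 21 of the 25 fits that left out 1 array. The Prkar1b call at 8 weeks was lost with the upper quartile as a covariate (0.62, adjusted p = 0.0732). The phosphodiesterase gene Pde4a rose at 12 weeks (0.43, adjusted p = 0.0064) but at a dim level, 2.20 to 2.52 against 1.83 to 2.11 at 4 weeks. Adcy3, an adenylyl cyclase outside the naming rule, rose at 12 weeks (0.32, adjusted p = 0.0470). The Adcy3 call held in 9 of the 25 fits that left out 1 array and was lost with the upper quartile as a covariate (adjusted p = 0.0900) and under quantile normalization (adjusted p = 0.181). Pde4b fell at 16 weeks (-0.51, adjusted p = 0.0077), and Rapgef3, a cyclic AMP-activated exchange factor, fell at 20 weeks (-0.87, adjusted p = 0.0352). The Pde4b call held in all 25 fits that left out 1 array, and that of Rapgef3 in 19.

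Of 18 measured genes that shut receptors off or tune G proteins (19 listed), 0, 2, 1 and 0 rose and 1 fell at each age, where 5.66% of all genes rose at 12 weeks and 1.68% or less fell at any age. Rgs5, a regulator of G protein signaling known from pericytes, fell throughout. It spanned 5.33 to 6.15 at 4 weeks, 4.94 to 5.61 at 8 weeks, 4.69 to 5.13 at 12 weeks, 4.59 to 4.97 at 16 weeks and 4.28 to 4.90 at 20 weeks. The differences were -0.73, -0.94, -1.07 and -1.25 (adjusted p = 0.0118, 8.5e-04, 2.3e-04 and 3.6e-05), and the groups overlapped with 4 weeks only at 8 weeks. At 12, 16 and 20 weeks 33.6%, 4.38% and 2.57% of all genes did not overlap with 4 weeks. Of 8 endothelial markers, 0, 3, 3 and 2 fell at 8, 12, 16 and 20 weeks. Among them were Kdr at -0.81 and Tie1 at -0.46 at 12 weeks (adjusted p = 0.0053 and 0.0104). Of 9 fibroblast markers, 4, 5, 5 and 4 fell at these ages. Of 10 myoepithelial and smooth muscle markers, 2 rose at 12 weeks and 0 fell at any age. The part of these lists in the Rgs5 values was not tested. Arrb2, beta-arrestin 2, rose at 12 and 16 weeks (1.14 and 1.04, adjusted p = 0.0147 and 0.0385), and Ric8a, a chaperone of G protein alpha subunits, rose at 12 weeks (1.38, adjusted p = 0.0115). The Arrb2 call at 12 weeks was lost with the upper quartile as a covariate (0.99, adjusted p = 0.0506) and under quantile normalization (0.85, adjusted p = 0.0627). With 1 array left out, the Arrb2 call held in 24 of 25 fits at 12 weeks and in 17 at 16 weeks.

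**Figure D5:**
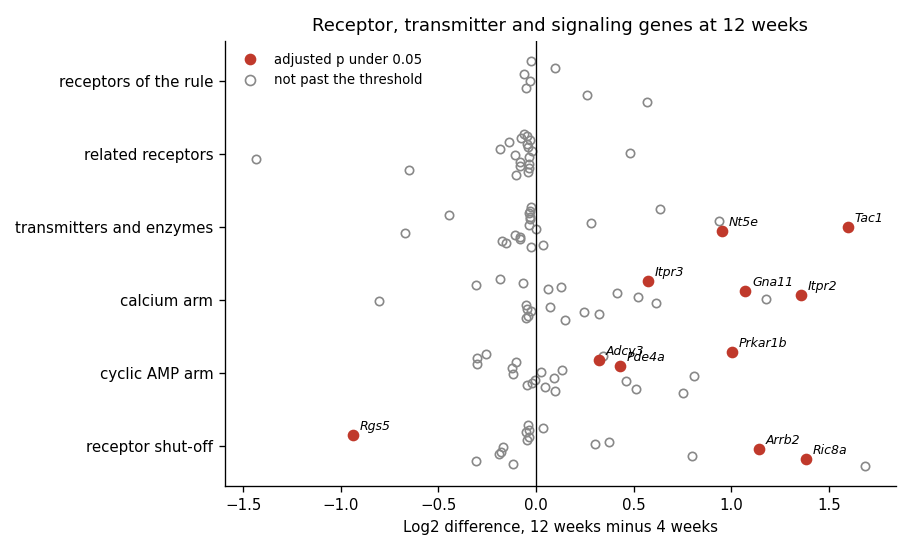
Log2 difference of 12 weeks minus 4 weeks (x axis) for each measured gene of the receptor set and of 5 pathway lists (y axis, spread vertically only for view), with filled points for an adjusted p under 0.05. None of the 7 receptors is filled, and the filled points are Nt5e, Tac1, Itpr3, Gna11, Itpr2, Adcy3, Prkar1b, Pde4a, Arrb2, Ric8a and, below 0, Rgs5.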

How the data were processed

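Total RNA of 25 salivary gland samples was measured on Affymetrix mouse arrays, 1 mouse per array. The table deposited by the authors holds log2 values of 45101 probe sets on each array (0.13 to 16.9), summarized by GCRMA per the methods of the study and by RMA per the submitters' processing notes. Both rescale the arrays to each other and model background, which compresses dim probe sets. The RMA version was not given in the sources used here. Values were used as deposited. Probe sets with 1 symbol (34958) gave 18194 genes, 11696 of them with a probe set above the median of 3.27, and a gene is the mean of its probe sets above that median, or of all where none was. All arrays were fitted in limma 3.58.1 (R 4.3.3) and tested on simulated data first. A gene is said to rise, fall or pass where its adjusted p was under 0.05. Precision rests on 5 mice per age. No 2 arrays were identical (highest r 0.997).

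The receptors and lists were chosen with earlier results of these data known. Named were all receptors, up to 4 passing genes per pathway list by adjusted p, and the 3 genes of highest rho per brighter receptor. Genes without a common symbol were skipped in ranking by rho. Alternatives covered probe set choice, normalization, weights, prior, replicate block, the ages fitted and each array left out. Figures were drawn with matplotlib 3.10.9 (Python 3.11.15).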

Additional observations from a re-analysis of the deposited data

Results flagged for a closer look

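In 6 of 35 groups of 5 mice, 1 mouse lay apart from the other 4 by more than Dixon's value for 5 samples (a gap of 0.71 of the range). Chance gives about 1 in 20 for independent groups. These groups reuse the same 25 arrays and are not independent, so that rate is no test of the count. The share over all genes was not counted. Mouse 3 at 20 weeks accounted for 3 of them, with Chrm3 at 2.79, Vipr2 at 3.77 and P2rx7 at 3.38. Mouse 2 at 16 weeks accounted for 2, with Vipr2 at 2.69 and Tacr1 at 1.79. Vipr1 at 16 weeks was at 3.94 in mouse 5, whose companions lay between 5.24 and 5.50. Chrm3, Vipr2 and Tacr1 are 3 of the 4 receptors with only dim probe sets, and the 4th of these, Adra1b, had no such value. Mouse 3 at 20 weeks and mouse 2 at 16 weeks are the arrays with the highest level among dim probe sets.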

How the results depend on the processing

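Over 37 alternative fits the 7 receptors gave 1785 differences, of which 1772 stayed on their side of the threshold, 12 passed newly and 1 passed with the opposite sign, and 90 that did not pass changed sign. The fits that left out 1 array each called 0 receptors in every comparison. Array weights called 4 receptors at 12 against 4 weeks (Adra1b -0.047, Vipr2 -0.072, Tacr1 -0.030 and P2rx7 0.64), 1 at 20 against 4 weeks (Chrm1, -0.58) and 2 in the F-test (Chrm1 and P2rx7), in fits that called 54.9%, 35.9% and 37.7% of all genes. Leaving out the 3 arrays that correlated least with their own age, which was decided once the data had been seen, called 1 receptor at 8 weeks (Vipr2), 4 at 12 weeks (the same 4 as the weights), 1 at 16 weeks (Vipr2), 2 at 20 weeks (Chrm1 -0.52, and Vipr2 with -0.061 against 0.20 in all arrays) and 1 in the F-test (Vipr2), in fits that called 16.6%, 43.3%, 33.3%, 32.1% and 25.7% of all genes. For P2rx7 at 12 weeks the estimate was unchanged, as no array of either age was left out, and its p was smaller. Without mouse 3 at 20 weeks alone the Vipr2 difference was -0.043. The count over all genes at 12 against 4 weeks was 1276, from 613 to 3017 with 1 array left out and from 975 to 9980 otherwise. The count of 3017 was without mouse 3 at 20 weeks and that of 613 without mouse 2 at 12 weeks. A fit with the replicate number as a block called 0 receptors. The labels do not say whether the numbers pair mice. Mice of the same number in different ages had a median correlation of deviations of -0.043 (-0.58 to 0.57), with 15 of 50 pairs over 0.1. Other pairs had a median of 0.007 (-0.57 to 0.61), with 69 of 200 over 0.1. No pairing was seen in these values, but with ranges so wide they cannot exclude it. Litters were not labelled, so a shared litter could not be checked. Of 25 changes among the pathway genes, 14 held in every fit with 1 array left out, 9 in every alternative, 20 under quantile normalization and 18 with the upper quartile as a covariate, and none changed sign. Signal over background limits Chrm3, Adra1b, Vipr2 and Tacr1, for which no change of the transcript was detectable at this level. Chrm1, Vipr1 and P2rx7 also had a dim probe set each, designed on a RefSeq mRNA record (means 2.37, 1.84 and 1.73). Their results rest on the brighter probe sets alone, and why the probe sets of a gene differ was not tested.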
